A study of Mus musculus with 6 samples.

Results

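The Cbl ubiquitin ligases, 2 adaptors that join them to the endocytic machinery and 4 receptor kinases were followed by RNA sequencing in MCEC cells with and without knockdown of Fat4. The 9 genes, out of 78317 genes in the deposited table, were taken by symbol: the ligases Cbl, Cblb and Cblc, the adaptors Sh3kbp1 and Cd2ap, and the receptors Egfr, Erbb2, Erbb3 and Met. Where a symbol stood on several rows, the row with the highest summed count was to be used, but each of the 9 symbols stood on 1 row, so no row was in fact selected on its summed count, the one measured value the rule names. The genes had, however, been proposed with earlier results of these libraries known. The Fat4 knockdown group (genotype ShFat4, a short hairpin RNA against the giant cadherin gene Fat4) and the wild-type control group held 3 libraries each. All 6 came from MCEC, a single mouse line labelled as cardiac endothelial. Whether the control cells carried another hairpin, how many knockdown clones there were and whether each library had its own culture is stated nowhere in the labels. The p-values below therefore reflect library-to-library spread, part or all of which may be technical.

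Cbl proteins attach ubiquitin to activated receptor tyrosine kinases. Their tyrosine kinase binding domain recognises phosphorylated tyrosines, including sites in Egfr and Met, and their RING finger recruits the ubiquitin-conjugating enzyme. The tagged receptor is drawn into endosomes and sorted to lysosomes, a route in which the adaptor proteins encoded by Sh3kbp1 (also called CIN85) and Cd2ap link Cbl to endophilin and the actin cytoskeleton. Egfr binds epidermal growth factor and its relatives, Erbb2 has no known ligand and pairs with other family members, Erbb3 has little kinase activity and binds neuregulins, and Met is the receptor for hepatocyte growth factor. Cbl and Cblb are widely made, while Cblc is known mainly from epithelia.

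The promoters of Cbl and Erbb2, the genes that fell, and of Cblb, the closest relative of Cbl, are shown first for reference. They are RefSeq sequences of build GRCm38.p6, whereas gene positions further on follow the deposited table, for which the submitters' processing notes name GRCm39. The windows reach from 250 bases before to 50 bases after the annotated start, and are written 5′ to 3′ on the gene's strand. Capitals mark GC boxes (GGGCGG or CCGCCC) and CCAAT boxes (CCAAT or ATTGG), searched on both strands.
Cbl, chr9:44233997-44234296, minus strand: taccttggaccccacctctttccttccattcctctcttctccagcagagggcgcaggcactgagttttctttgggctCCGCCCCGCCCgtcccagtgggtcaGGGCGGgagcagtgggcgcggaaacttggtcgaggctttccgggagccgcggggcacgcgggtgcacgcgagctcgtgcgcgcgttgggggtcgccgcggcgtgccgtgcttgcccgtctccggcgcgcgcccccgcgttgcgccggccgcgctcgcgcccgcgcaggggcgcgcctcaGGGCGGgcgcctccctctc
Cblb, chr16:52031299-52031598, plus strand: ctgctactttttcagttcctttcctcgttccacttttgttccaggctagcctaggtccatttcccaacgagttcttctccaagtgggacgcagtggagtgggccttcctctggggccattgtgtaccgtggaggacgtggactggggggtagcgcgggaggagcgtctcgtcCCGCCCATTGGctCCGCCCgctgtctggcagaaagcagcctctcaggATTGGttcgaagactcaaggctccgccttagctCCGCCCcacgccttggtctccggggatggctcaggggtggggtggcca
Erbb2, chr11:98412234-98412533, plus strand: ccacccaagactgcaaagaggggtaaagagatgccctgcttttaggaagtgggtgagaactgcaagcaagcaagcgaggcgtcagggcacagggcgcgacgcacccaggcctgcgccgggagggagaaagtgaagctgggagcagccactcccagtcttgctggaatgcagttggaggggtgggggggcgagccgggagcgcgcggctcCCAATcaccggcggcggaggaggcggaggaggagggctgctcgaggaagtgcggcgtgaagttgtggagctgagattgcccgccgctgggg
The Cbl window held 4 GC boxes and no CCAAT box, with 43 CpG dinucleotides, against a median of 7 over the 32851 listed promoters. The Cblb window held 3 GC boxes and 2 CCAAT boxes, with 17 CpG dinucleotides. The Erbb2 window held no GC box and 1 CCAAT box, with 21 CpG dinucleotides. Of all listed promoters of this length, 35.7% held a GC box and 37.4% a CCAAT box. The Cbl and Erbb2 windows had neither of these in common. Each held 1 match to the letters CATTCC or GGAATG of TEAD sites, left in lower case, which the Cblb window lacked and which 14.7% of all listed promoters held. E-box (CACGTG), cAMP response element (TGACGTCA) and TATA box (TATAAA or TTTATA) letters, also searched, were in none of the 3 windows and in 7.2%, 1.8% and 13.6% of all listed promoters. In the Cbl window a pair of neighbouring GC boxes overlaps by a single base, and the matches only describe letters in a window. The table listed promoters for 7 of the 9 genes.

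Library totals ran from 10509069 to 11538010 counts in knockdown and from 10305810 to 11870091 in control libraries. Fat4 itself was scarce, at 0.85 ± 0.11 CPM in knockdown and 1.83 ± 0.80 CPM in control libraries (SD, n = 3, adjusted p = 0.0391 by edgeR at a log2 fold change of -1.17), where CPM is the count per 1000000 counts of the scaled library. Its groups overlapped, since control replicate 1 stood at 0.97 CPM and knockdown replicate 2 at 0.98 CPM. The call held without control replicate 1 and was lost in each of the other 5 fits that left out 1 library, up to an adjusted p of 0.207 without control replicate 3. It was also lost by limma-voom (adjusted p = 0.0674) and after GC and length correction (0.0684, or 0.0802 with the replicate block). DESeq2 gave Fat4 no adjusted p. Of 11 endothelial markers, 6 (Tie1, Vwf, Erg, Emcn, Cldn5 and Robo4) had no count in any library, and the sum over the list was 2.28 to 3.24 CPM in knockdown and 2.97 to 3.28 CPM in control libraries, so the labelled cell type was not reflected in its defining transcripts. Among 12 epithelial markers, Epcam was at 0 in the knockdown libraries and 0.13 CPM on average in control libraries, and Krt19 made up most of a sum of 114.7 to 115.6 CPM in knockdown and 118.2 to 121.3 CPM in control libraries. The 7 mesothelial markers were all tested, and 4 fell (Upk3b, Lrrn4, Gpm6a and Wt1), where 8.04% of all 13372 tested genes fell (edgeR adjusted p under 0.05). The sums of the 7 were 1479 to 1537 CPM in knockdown and 1702 to 1803 CPM in control libraries. Upk1b, the most abundant of them, averaged 667.2 CPM in knockdown and 666.7 CPM in control libraries. Krt7 was scarce and lower in every knockdown library without passing the test (1.84 CPM in knockdown, 3.05 CPM in control, log2 fold change -0.72, edgeR adjusted p = 0.0501). The groups of Msln overlapped (107.7 CPM in knockdown, 114.4 CPM in control, edgeR adjusted p = 0.418). Of 8 fibroblast markers 4 were tested and 1 fell, beside the same 8.04% of all tested genes. It was Col1a1, at 1513 CPM in knockdown and 1964 CPM in control libraries, which carried nearly all of the list's sum (1546 to 1685 CPM in knockdown, 1996 to 2086 CPM in control). Dcn was higher in every knockdown library without passing the test (76.8 CPM in knockdown, 67.8 CPM in control, edgeR adjusted p = 0.0668), and Col1a2 stood at 1.63 CPM in knockdown and 1.11 CPM in control libraries (edgeR adjusted p = 0.262). Of 9 leukocyte markers 1 was tested and 0 changed (sums 4.31 to 4.73 CPM in knockdown, 4.02 to 4.72 CPM in control).

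Of the 9 genes, 8 had enough counts to be tested, and a gene was called changed at a Benjamini-Hochberg adjusted p under 0.05. Over these 8, 2 fell (Cbl and Erbb2) and 0 rose, against a background of 8.04% of the 13372 tested genes called lower and 8.73% called higher (2242 called, 16.8%). Of all calls 52.1% were higher in knockdown, or 33.4% with scaling by library size alone, which shifted the median log2 fold change of all genes to -0.07. The number called over all genes ran from 922 to 3032 when each library was left out in turn. It was 1194 without knockdown replicate 1, 1110 without knockdown replicate 2, 922 without control replicate 2 and 1096 without control replicate 3. Such fits hold fewer libraries, which by itself can lower the number. The highest number, 3032, lay above the 2242 called with all 6 libraries, and what raised it was not tested. Without control replicate 1, 7 adaptors and partners and 9 endocytic genes of the lists below were called, against 4 and 6 with all libraries. The count among the 8 was 2 in every fit. Between control libraries, the chi-square over degrees of freedom was 9.10 and 5.11 for replicate 1 against replicates 3 and 2. It was 2.43 between control replicates 2 and 3, and 3.56 to 5.97 between knockdown libraries. In 4 of the 8, every knockdown library lay below every control library, a pattern shown by 17.5% of all tested genes, and in 0 of the 8 above, a pattern shown by 17.4%. Over both directions 34.9% of all tested genes had groups that did not overlap. The median log2 fold change of the 8 was -0.20, beside -0.01 for all tested genes. With so few genes, chosen with results known, these counts describe the group only.

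Among the ligases, Cbl fell 1.67-fold, and among the 8 tested genes it had the largest log2 fold change in size. Cbl (ENSMUSG00000034342, GRCm39 chromosome 9, exons spanning 44054273 to 44145346 on the minus strand) stood at 49.4, 53.5 and 58.8 CPM in knockdown replicates 1, 2 and 3. The control libraries held 88.3, 91.0 and 90.6 CPM. Every knockdown library lay far below every control library, and the control values were nearly alike. The means were 53.9 ± 4.71 CPM in knockdown and 90.0 ± 1.45 CPM in control libraries (SD, n = 3). The edgeR estimate was a log2 fold change of -0.74 (SE 0.07, 95% interval -0.88 to -0.59, edgeR quasi-likelihood adjusted p = 5.23e-05). Its p ranked 8 among the 13372 tested genes, and 1.12% of tested genes had a more negative log2 fold change. The call held under all 19 other settings, with log2 fold changes of -0.81 to -0.66. In the same libraries 4 of 7 mesothelial markers and Col1a1 fell (8.04% of all tested genes fell), while Upk1b was level, as given above. Without passing the test, Krt7 was lower and Dcn higher in every knockdown library. The part of these markers in the result was not tested, and in bulk RNA fewer cells of a type and less RNA per cell cannot be told apart.

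Cblb, which encodes the relative of Cbl best known for restraining T cell activation, was also lower in every knockdown library, but did not pass the test. It stood at 10.7, 8.77 and 10.8 CPM in knockdown replicates 1, 2 and 3 and at 12.3, 11.6 and 12.7 CPM in the control replicates (ENSMUSG00000022637, chromosome 16, 51851588 to 52028411). The groups did not overlap, but knockdown replicates 1 and 3 lay close under control replicate 2. Means were 10.1 ± 1.15 CPM in knockdown and 12.2 ± 0.57 CPM in control libraries (SD, n = 3). The edgeR estimate was a log2 fold change of -0.27 (SE 0.11, 95% interval -0.50 to -0.03, edgeR adjusted p = 0.112). Its interval did not reach that of Cbl, although the difference between the 2 genes was not tested. Across the 19 other settings the adjusted p of Cblb ran from 0.0562, with scaling by library size alone, to 0.326 by DESeq2.

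Cblc, the epithelial member, was at the edge of detection, with 0 counts in each knockdown library and 1 count in each control library (ENSMUSG00000040525, chromosome 7, 19512806 to 19530734). A count of 0 allows up to 3 counts by counting error alone, or 0.26 to 0.285 CPM per knockdown library on unscaled library totals. A difference was thus not detectable at this depth, and Cblc was not tested. An unnamed long noncoding gene (ENSMUSG00000122624) shares 115 exonic bases with Cblc on the other strand, and the labels do not say whether counting used strand.

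**Figure D1:**
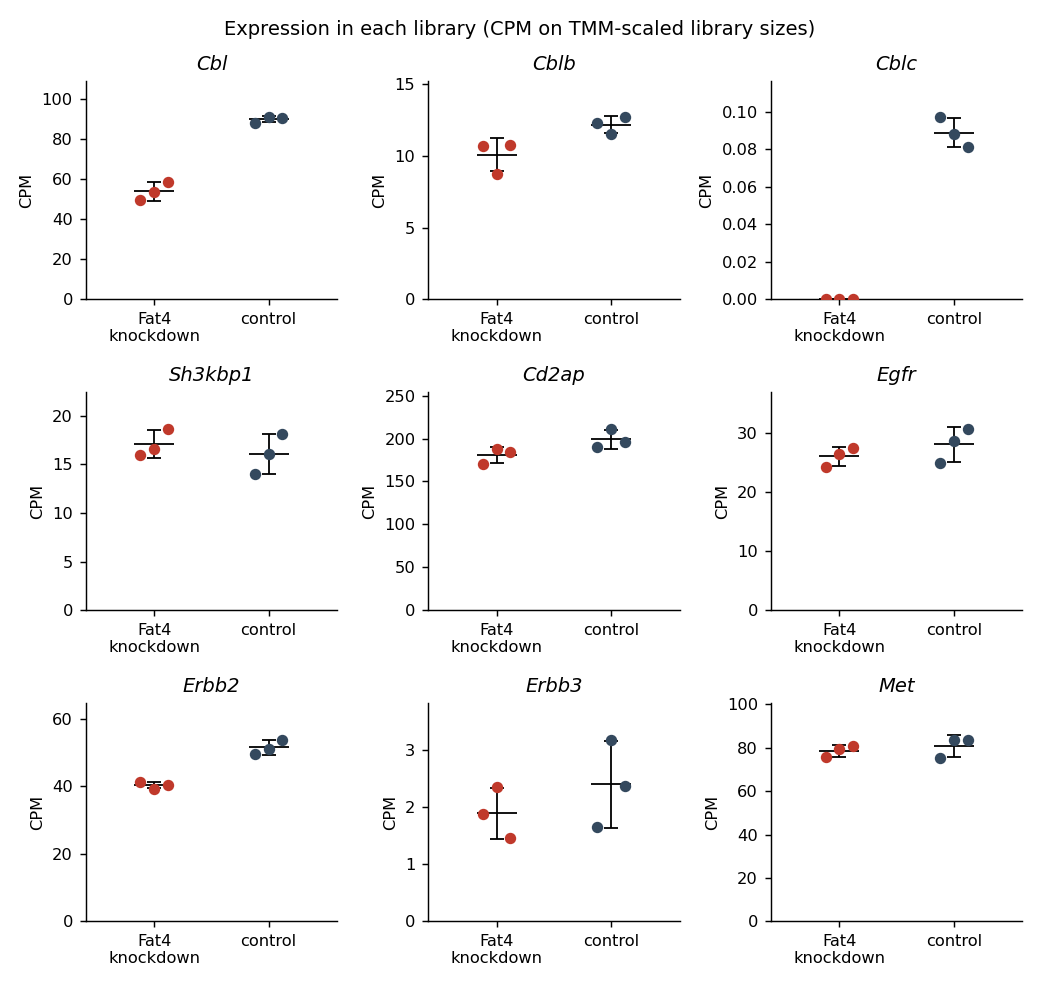
Expression of the 9 genes in each library, in CPM on scaled library sizes (vertical axes start at 0 and differ between panels). Points are libraries and bars are mean ± SD (n = 3), with the Fat4 knockdown left of the control; Cbl, Cblb, Cd2ap and Erbb2 show no overlap among the tested genes, and Cblc rests on 1 count per control library.

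The make-up of the ligase transcripts differed slightly between the groups. Per kilobase of exon, Cbl exceeded Cblb 3.92-, 5.18- and 4.62-fold in knockdown replicates 1, 2 and 3, against 6.08-, 6.67- and 6.06-fold in the control replicates. As a share of the 3 ligases' summed level per length, Cblb made up 20.3%, 16.2% and 17.8% in the knockdown and 14.1%, 13.0% and 14.1% in the control libraries. The share was thus higher in every knockdown library, and Cbl remained the main ligase transcript in all 6. These shares were not tested. The longest stretch shared letter for letter by protein-coding transcripts of Cbl and Cblb (GENCODE M21) was 20 bases, shown because it bears on how far reads of these relatives could be confused.
Cbl and Cblb, shared stretch: tttgaatttgatatttttac
The Cbl counts of 5 of the 6 libraries were not whole (for example 553.83 in knockdown replicate 1), and how the authors' counting made such values is not stated. No other gene in the table shares an exonic base with Cbl.

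Neither adaptor passed the test. Cd2ap, the adaptor also known for anchoring the podocyte slit diaphragm, had the highest level per exon length of the 9 genes. It stood at 170, 188 and 185 CPM in knockdown replicates 1, 2 and 3 and at 190, 212 and 196 CPM in control replicates 1, 2 and 3 (ENSMUSG00000061665, chromosome 17, 43103842 to 43187556). The groups did not overlap, but knockdown replicate 2 lay close under control replicate 1. The log2 fold change was -0.14 (SE 0.06, 95% interval -0.28 to -0.002, edgeR adjusted p = 0.156), and the adjusted p stayed above the threshold under every other setting, from 0.0527 to 0.508. Sh3kbp1 (ENSMUSG00000040990, chromosome X, 158410268 to 158761065) stood at 16.0, 16.6 and 18.7 CPM in knockdown and at 14.0, 16.1 and 18.2 CPM in control replicates 1, 2 and 3. Its groups overlapped throughout, and the log2 fold change was 0.08 (SE 0.11, 95% interval -0.15 to 0.31, edgeR adjusted p = 0.658). Without control replicate 1, the lowest library, the value was -0.0018.

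Of the receptors, Erbb2 fell and the other 3 did not pass the test. Erbb2 (ENSMUSG00000062312, chromosome 11, 98303296 to 98328542 on the plus strand) stood at 41.2, 39.3 and 40.3 CPM in knockdown replicates 1, 2 and 3. The control libraries held 49.7, 51.1 and 53.8 CPM. The groups were clearly apart, and the knockdown values were tightly grouped. Means were 40.3 ± 0.91 CPM in knockdown and 51.5 ± 2.10 CPM in control libraries (SD, n = 3). The edgeR estimate was a log2 fold change of -0.36 (SE 0.06, 95% interval -0.49 to -0.22, edgeR adjusted p = 0.00304), or 1.28-fold lower. The call held under all 19 other settings, but the size fell to -0.24 (adjusted p = 0.0144) once trends with GC content and exon length were removed. The marker values given beside Cbl apply here as well, and their part was not tested. Mien1, whose exons overlap those of Erbb2 by 9 bases on the other strand, rose, with 44.7 ± 3.65 CPM in knockdown and 35.4 ± 5.67 CPM in control libraries (SD, n = 3, adjusted p = 0.0308 by edgeR at a log2 fold change of 0.34).

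Egfr (ENSMUSG00000020122, chromosome 11, 16702203 to 16868158) stood at 24.3, 26.5 and 27.5 CPM in knockdown and at 25.0, 28.6 and 30.8 CPM in control replicates 1, 2 and 3. The groups overlapped, with control replicate 1 among the knockdown libraries. The log2 fold change was -0.11 (SE 0.09, 95% interval -0.30 to 0.08, edgeR adjusted p = 0.418). Met (ENSMUSG00000009376, chromosome 6, 17463799 to 17573979) stood at 75.5, 79.4 and 80.7 CPM in knockdown and 75.2, 83.7 and 83.7 CPM in control replicates 1, 2 and 3. Its log2 fold change was -0.04 (SE 0.06, 95% interval -0.18 to 0.09, edgeR adjusted p = 0.693), so that a change in Met of the size seen for Erbb2 lay outside the interval. Erbb3 (ENSMUSG00000018166, chromosome 10, 128403392 to 128425521) was scarce, with 21, 24 and 16 counts in knockdown and 17, 36 and 29 counts in control replicates 1, 2 and 3. The groups overlapped, and the interval was wide (log2 fold change -0.36, SE 0.27, 95% interval -0.93 to 0.22, edgeR adjusted p = 0.399), so at this depth neither no change nor a fall as large as that of Erbb2 could be set aside.

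**Figure D2:**
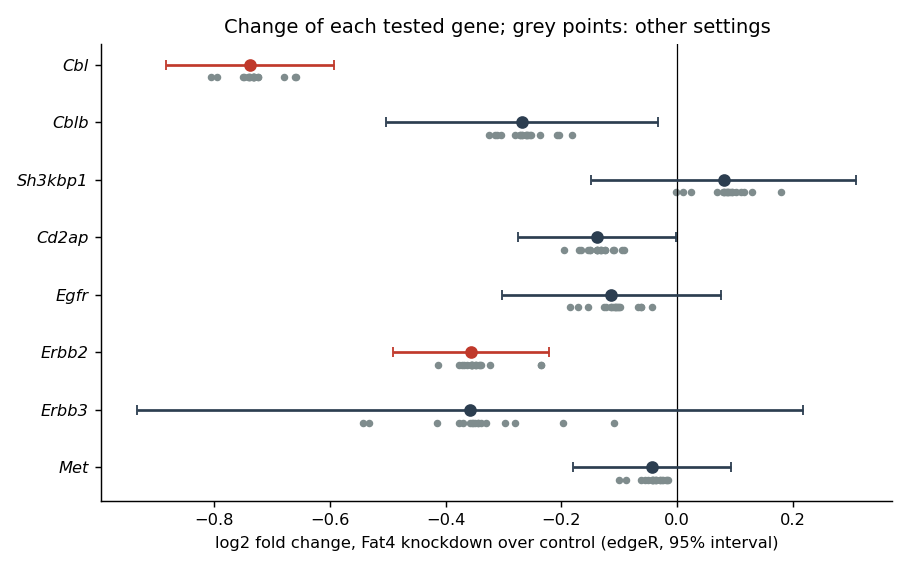
Log2 fold change, Fat4 knockdown over control, of the 8 tested genes with 95% intervals (edgeR), red where the adjusted p was under 0.05. Grey points give the value under each other setting; those of Cbl lie between -0.81 and -0.66, and those of Sh3kbp1 reach from -0.0018 to 0.18.

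**Figure D3:**
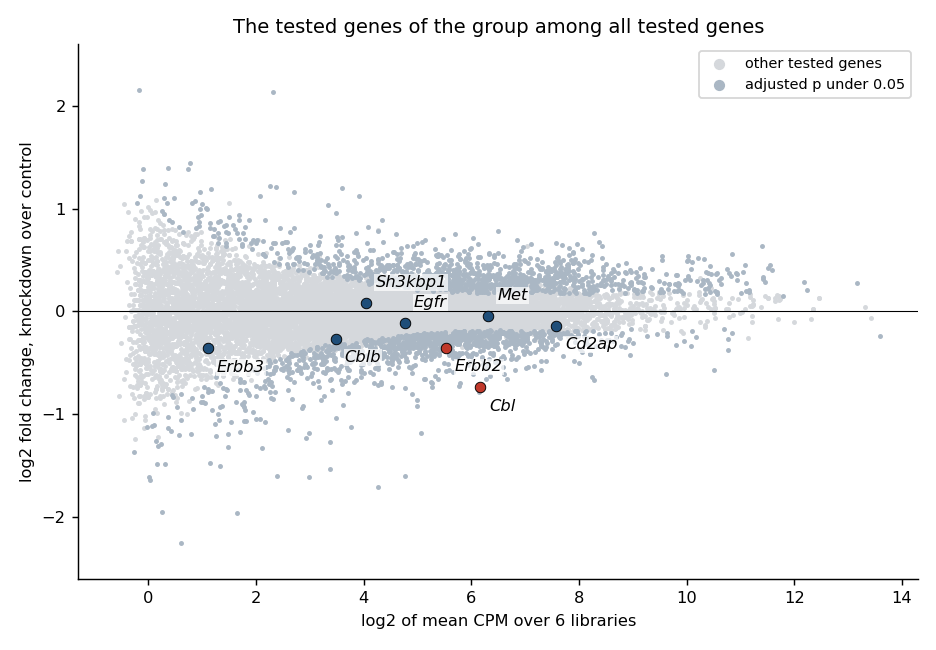
Log2 fold change against the log2 mean CPM over 6 libraries for all 13372 tested genes, with the 8 genes marked (red where called). Cbl lies at -0.74, and 1.12% of tested genes had a more negative value.

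Levels per exon length put the 9 genes in the same order in both groups. In knockdown libraries the order of mean CPM per kilobase was Cd2ap (11.4), Met (10.2), Erbb2 (7.73), Cbl (4.37), Egfr (2.30), Sh3kbp1 (1.69), Cblb (0.96), Erbb3 (0.31) and Cblc (0). In control libraries it was Cd2ap (12.6), Met (10.5), Erbb2 (9.89), Cbl (7.29), Egfr (2.48), Sh3kbp1 (1.59), Cblb (1.17), Erbb3 (0.40) and Cblc (0.035). Neighbours in this order were separated in every library of a group, with the exception of Met and Erbb2 in the control, where the lowest Met value was 9.79 and the highest Erbb2 value 10.33. The ratio of Cbl to Egfr, Met and Erbb2 was lower in each knockdown library than in any control library, while its ratio to the scarce Erbb3 overlapped. Cbl stood at 1.87, 1.86 and 1.96 times Egfr per length in knockdown replicates 1, 2 and 3, against 3.25, 2.92 and 2.703 times in the control replicates. Relative to Met it was 0.41, 0.42 and 0.45 in the knockdown and 0.73, 0.68 and 0.67 in the control replicates. Relative to Erbb2, which fell as well, it was 0.51, 0.57 and 0.62 in the knockdown and 0.75, 0.75 and 0.71 in the control replicates. Relative to Erbb3 it was 12.8, 11.1 and 19.7 in the knockdown and 26.1, 13.9 and 18.7 in the control replicates. None of these ratios was tested. The deposited exon length counts every annotated exon of a gene, so levels per length are low for genes with many alternative exons.

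**Figure D4:**
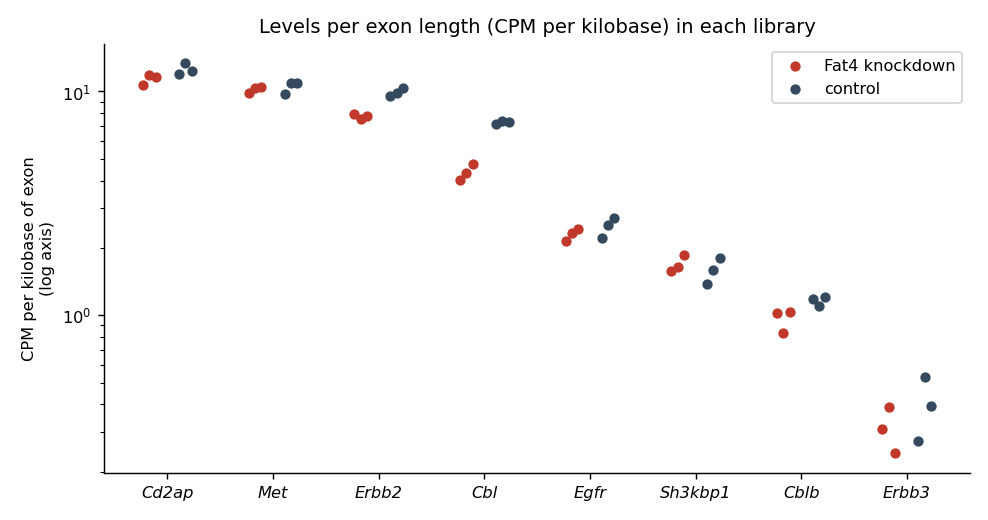
CPM per kilobase of exon (log axis) of 8 genes in each library, Fat4 knockdown left of control. The order is the same in both groups, and the gap between Erbb2 and Cbl is wider in the knockdown (means 7.73 and 4.37) than in the control (9.89 and 7.29); Cblc, at 0 in the knockdown, is left out.

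Among all tested genes, 20 had a log2 CPM that followed that of Cbl over the 6 libraries with a Pearson correlation above 0.99, as a description over 6 points that share their libraries. The nearest were Smoc1 (r = 0.998), which encodes a matrix-associated calcium-binding protein, Cav1 (r = 0.997), the main caveolin of caveolae, and Gpat4 (r = 0.997), an enzyme of glycerolipid synthesis. Cav1 stood at 96.1, 97.7 and 104 CPM in knockdown and 122, 126 and 124 CPM in control replicates 1, 2 and 3. Smoc1 was low, at 0.52 CPM on average in knockdown and 2.53 CPM in control libraries.

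Of 12 ligand genes for these receptors 5 could be tested, of which 1 rose and 1 fell, where 8.73% of all tested genes rose and 8.04% fell. The median log2 fold change was 0.21, against -0.01 for all tested genes. The epiregulin gene Ereg, a ligand of Egfr, rose to 16.6 ± 0.82 CPM in knockdown libraries, against 11.8 ± 1.33 CPM in control libraries (SD, n = 3, adjusted p = 0.00607 by edgeR at a log2 fold change of 0.50, SE 0.10), and held under all 19 other settings. The neuregulin gene Nrg1, which encodes a ligand of Erbb3, fell to 9.03 ± 1.84 CPM in knockdown libraries, against 12.1 ± 0.44 CPM in control libraries (SD, n = 3, adjusted p = 0.0417 by edgeR at a log2 fold change of -0.42). The Nrg1 call was lost without knockdown replicate 1 (log2 fold change -0.29, adjusted p = 0.173) and knockdown replicate 3 and without each of control replicates 1, 2 and 3, as well as by DESeq2 and after GC and length correction. The count over the ligands was 1 without knockdown replicate 3 and without each control replicate. Without knockdown replicate 1 it was 2, with 2 higher and 0 lower. Hgf, the ligand of Met, and Nrg3 had no count in any library, which allows up to 0.253 to 0.291 CPM per library on unscaled totals.

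Of 20 other receptor kinases 13 were tested, of which 4 fell and 0 rose (8.04% and 8.73% over all tested genes), with a median log2 fold change of -0.19, against -0.01 for all tested genes. Fgfr2, a fibroblast growth factor receptor, fell to 9.20 ± 0.51 CPM in knockdown libraries, against 14.97 ± 0.69 CPM in control libraries (SD, n = 3, adjusted p = 0.000792 by edgeR at a log2 fold change of -0.71, SE 0.10), under every setting. Mst1r, the relative of Met (log2 fold change -0.60), the insulin-like growth factor receptor Igf1r (-0.30) and the collagen receptor Ddr1 (-0.19) fell with edgeR adjusted p-values of 0.0202, 0.0464 and 0.0486. The groups of Igf1r overlapped, with control replicate 1 at 97.2 CPM and the knockdown libraries at 90.6 to 99.9 CPM. After GC and length correction Fgfr2 alone was called. The call of Mst1r was lost without knockdown replicates 1 or 2 or control replicate 2, and those of Igf1r and Ddr1 without each library except control replicate 1. Igf1r and Ddr1 also lost their calls under RLE and upper quartile scaling, Igf1r by limma-voom and with robust dispersion estimation, Ddr1 by DESeq2 and without mitochondrial and ribosomal protein genes, and Mst1r by DESeq2. The count was 1 without knockdown replicate 1, knockdown replicate 2 or control replicate 2, and 2 without knockdown replicate 3 or control replicate 3. Erbb4, the fourth member of the Egfr family, and Flt3 had no count.

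Of 26 adaptors and binding partners of Cbl proteins 21 were tested, of which 4 fell and 0 rose, beside 8.04% lower and 8.73% higher over all tested genes. Their median log2 fold change was -0.085, against -0.01. The docking protein gene Gab1, which couples Met and Egfr to downstream kinases, fell to 31.4 ± 1.02 CPM in knockdown libraries, against 39.2 ± 1.41 CPM in control libraries (SD, n = 3, adjusted p = 0.00670 by edgeR at a log2 fold change of -0.32, SE 0.07), under every setting. Pik3r2 (log2 fold change -0.38, edgeR adjusted p = 0.00845) and Pik3r1 (-0.36, adjusted p = 0.0372), regulatory subunits of phosphoinositide 3-kinase, and Sorbs3 (-0.63, adjusted p = 0.0144), the gene of the adaptor vinexin, fell as well. Grb2, the adaptor that carries Cbl to Egfr, did not pass the test, at 93.1 ± 4.69 CPM in knockdown and 105.7 ± 7.02 CPM in control libraries (SD, n = 3, adjusted p = 0.0799 by edgeR at a log2 fold change of -0.18), and was named after its values were seen. The count was 2 without knockdown replicate 1, control replicate 2 or control replicate 3 and 7 without control replicate 1. The call of Pik3r2 was lost without knockdown replicate 2 or control replicate 2, that of Sorbs3 without knockdown replicate 1 or control replicate 3, and that of Pik3r1 without knockdown replicates 1 or 3 or control replicates 2 or 3, by DESeq2 and after GC and length correction.

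A further list held genes that add ubiquitin to receptors, remove it or otherwise limit receptor signalling. Of the 19 listed, the entry written Cblll1 matched no symbol, so the gene meant by it was not examined. The other 18 were matched by symbol and tested. Of these 3 rose and 1 fell, where 16.8% of all tested genes were called (8.73% higher, 8.04% lower). Their median log2 fold change was -0.003, against -0.01 for all tested genes. Errfi1, the feedback inhibitor of the Egfr kinase also called MIG6, rose to 21.0 ± 2.39 CPM in knockdown libraries, against 13.8 ± 2.01 CPM in control libraries (SD, n = 3, adjusted p = 0.00421 by edgeR at a log2 fold change of 0.60, SE 0.11), under every setting. Ube2d3 (log2 fold change 0.23, edgeR adjusted p = 0.0332) and Ube2d2a (0.19, adjusted p = 0.0404), whose products are ubiquitin-conjugating enzymes that can serve Cbl, rose as well. Lrig3, a leucine-rich membrane protein gene of a family that restrains receptor kinases, fell to 2.62 ± 0.48 CPM in knockdown libraries, against 4.45 ± 0.45 CPM in control libraries (SD, n = 3, adjusted p = 0.0130 by edgeR at a log2 fold change of -0.76). The count was 2 without knockdown replicate 1 or control replicate 3 and 1 without knockdown replicate 2, knockdown replicate 3 or control replicate 2. The calls of Ube2d3 and Ube2d2a held in only 1 of the 6 fits without a library, the fit without control replicate 1, and that of Lrig3 was lost without knockdown replicates 2 or 3 or control replicate 2 and by DESeq2. With scaling by library size alone neither Ube2d3 (log2 fold change 0.17, adjusted p = 0.0619) nor Ube2d2a (0.13, adjusted p = 0.142) was called. The call of Ube2d2a was also lost with no filter on low counts (adjusted p = 0.108).

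Of 31 endocytic sorting genes 29 were tested, of which 5 fell and 1 rose, set against 8.04% lower and 8.73% higher among all tested genes. Their median log2 fold change was -0.04, against -0.01. The epsin gene Epn1, whose product binds ubiquitin on cargo at clathrin pits, fell to 52.3 ± 3.48 CPM in knockdown libraries, against 70.0 ± 3.98 CPM in control libraries (SD, n = 3, adjusted p = 0.00188 by edgeR at a log2 fold change of -0.42, SE 0.07). Rab5b, an early endosome GTPase gene, fell to 27.0 ± 2.01 CPM in knockdown libraries, against 35.7 ± 0.86 CPM in control libraries (SD, n = 3, adjusted p = 0.00344 by edgeR at a log2 fold change of -0.41, SE 0.07). Both calls held under every setting. The clathrin adaptor subunit gene Ap2a2 (-0.25, edgeR adjusted p = 0.0107) and Eps15l1 (-0.34, adjusted p = 0.0162) fell, and the clathrin light chain gene Clta rose (0.18, adjusted p = 0.0422). The count was 2 without knockdown replicate 2 or control replicate 2, 3 without control replicate 3 and 9 without control replicate 1. The call of Ap2a2 was lost after GC and length correction and without knockdown replicate 2 or control replicate 2, that of Eps15l1 without knockdown replicates 2 or 3 or control replicates 2 or 3, and that of Clta without knockdown replicates 1 or 2 or control replicates 2 or 3, with scaling by library size alone (log2 fold change 0.12, adjusted p = 0.131) and with no filter on low counts.

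**Figure D5:**
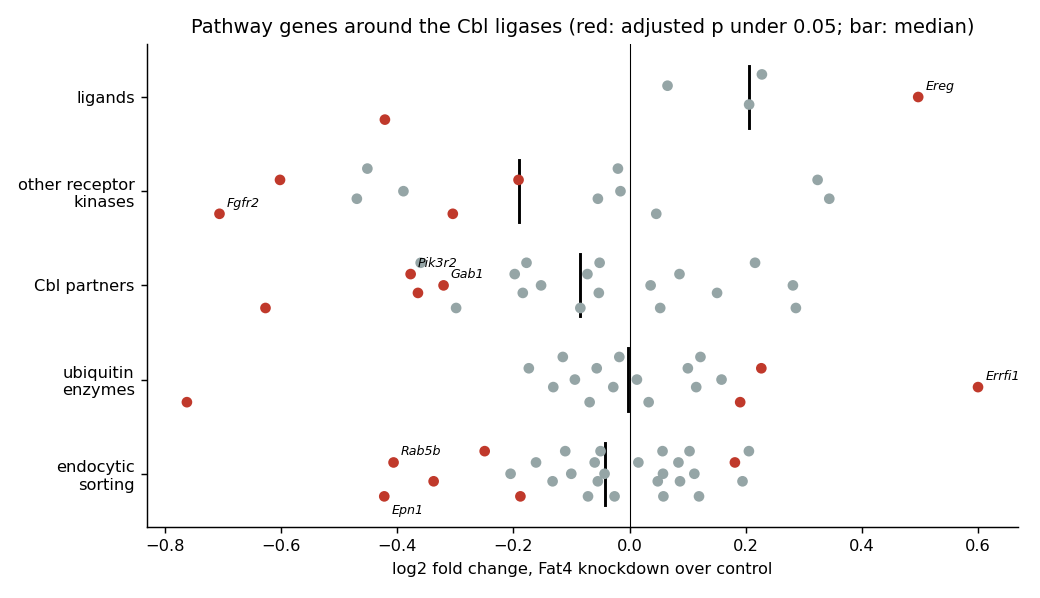
Log2 fold change, Fat4 knockdown over control, of each tested gene in 5 lists of pathway genes; red points passed the test, black bars are list medians and names mark genes with an edgeR adjusted p under 0.01. Ereg (0.50) and Errfi1 (0.60) stand to the right and Fgfr2 (-0.71) to the left.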

How the data were processed

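RNA was sequenced from 3 Fat4 knockdown and 3 control libraries. The deposited table gives estimated counts per gene (29.0% of nonzero values are not whole, tolerance 1e-06) and CPM, each count scaled by its library total; both are the authors' values. The submitters' processing notes name STAR 2.7.11, SAMtools 1.22.1, fastp 0.24.0, FastQC 0.12.1, MultiQC 1.32 and build GRCm39. They name no counter, strand setting or annotation release. The 92 spike-in rows were left out.

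Estimated counts were rounded and tested with edgeR 4.0.16 (R 4.3.3, limma 3.58.1): filterByExpr, TMM scaling, quasi-likelihood test, Benjamini-Hochberg adjustment over all 13372 genes kept. Printed CPM use TMM-scaled library sizes. A count of 0 allows up to 3 counts, or 0.253 to 0.291 CPM, covering counting error only. This limit alone uses the unscaled library totals. Alternatives changed scaling, filter, tool (DESeq2 1.42.0, limma-voom), block, GC and length trends (mgcv 1.9.3) and left out each library; robust dispersion estimation was added after seeing the data.

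The 9 genes, the 5 pathway lists and the 5 marker lists were chosen with earlier results of these data known. All 9 genes were named, with at most 4 called genes per direction and list, the 3 genes most like Cbl by Pearson correlation of log2(CPM + 0.5), and Fat4. On simulated data of this comparison with 13221 genes, 38 of 50 genes changed 1.3-fold and 47 of 50 changed 1.5-fold were recovered. Of 194 calls, 9 were false. Whether these rates hold for the measured libraries, or for scarce genes such as Erbb3, Lrig3 and Fat4, was not tested.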

Additional observations from a re-analysis of the deposited data

How the results depend on the processing

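Over 19 other settings the count of changed genes among the 8 tested was 2 each time, with Cbl and Erbb2 past the threshold in every setting. Values for single genes covered 28 genes: the 8, the called list genes named above and Fat4. Of these values 428 kept their direction and side of the threshold, and 96 lost their call, all of them values of list genes or Fat4. Only 1 changed sign, that of Sh3kbp1, at -0.0018 without control replicate 1 and between that and 0.1806 when each library was left out in turn. The cause was not tested. The count over other receptor kinases was 2 under RLE scaling, upper quartile scaling and DESeq2 and 1 after GC and length correction. The count over adaptors and binding partners was 7 with scaling by library size alone. The count over ligands was 1 by DESeq2 and after GC and length correction. Deviations of same-numbered libraries from their group means had correlations of -0.209, -0.058 and -0.037, and those of other pairs ran from -0.111 to 0.142. With 3 libraries per group these values cannot show whether same-numbered libraries shared a culture or day. With the replicate block 1958 genes were called, with 1 ligand and 2 other receptor kinases, and Nrg1, Igf1r, Ddr1, Pik3r1 and Ube2d2a lost their calls. GC and length correction with the replicate block gave 1321 changed genes, 1 ligand, 1 other receptor kinase and 1 adaptor or partner. It also gave 2 genes of the list of ubiquitin and receptor-limiting genes (Errfi1 and Ube2d3) and 3 endocytic genes. Leaving out each library in turn gave 922 to 3032 changed genes, 2 of the 8 genes each time, 1 to 2 ligands and 1 to 4 other receptor kinases. The same fits gave 2 to 7 adaptors and partners, 1 to 6 ubiquitin and receptor-limiting genes and 2 to 9 endocytic genes. DESeq2 gave no adjusted p for Erbb3 and Fat4, and the separate filter at 10 CPM removed both. Fat4 was called in 9 of the 17 other settings that gave it an adjusted p. Depth limits Erbb3, Cblc and Fat4.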
